A study of Mus musculus with 32 samples.

Results

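Regulatory T cells (Treg) and CD8 T cells sorted from the same treatment group of a mouse graft-versus-host disease experiment were compared by bulk RNA sequencing. The comparison addresses which effector genes both populations had at day 6 and which were found mainly in one of them. The comparison was chosen by label: 3 libraries labelled as Treg and 4 labelled as CD8, all from recipients that had received Treg, which makes 7 of the 31 libraries of the series. T cells came from C57Bl6 donors and were given to Balb/c recipients, which differ at the major histocompatibility genes, and the Treg were given on day 0. Spleen and lymph nodes were the tissue of every library. The replicate labels are JL019-1, JL019-2 and JL027 for Treg, and JL019-1, JL019-2, JL027-1 and JL027-2 for CD8 cells, and values below are given in that order. Day 0 libraries, taken before transplantation, served as the start point of each population (2 for Treg and 2 for CD8 cells), and the other 20 libraries entered the model only through the shared estimate of the spread. Day 6 is the time in the sample titles; the series' design text gives 8 days instead. The sort gates, and whether a library is 1 recipient or a pool, are not given in the sources used here, so p-values measure only the spread between these libraries.

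CD8 T cells that recognise host antigen become cytotoxic cells: they fill granules with granzymes and perforin, secrete interferon gamma and damage the tissues of the recipient. Treg carry the transcription factor FOXP3 and restrain such responses through surface molecules such as CTLA4, through cytokines such as interleukin 10, and by binding interleukin 2 with the high-affinity receptor chain CD25 (Il2ra). Activated Treg can also use granzyme B.

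Values are the authors' normalised counts for 16741 genes, whose read depth is unknown. A difference is Treg minus CD8 of log2(normalised count + 1), and a gene passed the test when its Benjamini-Hochberg adjusted p over all genes, from limma, was under 0.05. In bulk samples, fewer cells that express a gene and less RNA per cell cannot be told apart. Libraries correlated over genes at Pearson r 0.971 to 0.974 among Treg, 0.934 to 0.970 among CD8 cells and 0.882 to 0.929 between the populations. The CD8 library JL019-2 stood apart: its mean normalised count was 2385 against 1761 to 1968 in the other CD8 libraries, and its 50 highest genes held 23.2% of the total. The mean normalised count also separated the populations, at 1532 to 1612 in Treg, and so did the trend with gene span (the slope, per doubling of the genomic span in RefSeq, of the deviation of log2 values from gene means), at 0.039 to 0.057 in Treg and -0.124 to 0.015 in CD8 cells. With either measure corrected for, 5048 genes (mean normalised count as a covariate) or 5810 of the 15855 genes with a span (span trend removed) passed the test, against 6065 without correction. In single differences these measures and the populations cannot be told apart. Counts of gene lists are also given without CD8 JL019-2 wherever they differ. The 4 Y-linked genes in the table followed the label prefix in all but 1 of these libraries: Ddx3y was at 0 to 6.15 in the 4 JL019 libraries of day 6 and at 1148 to 1865 in the 3 JL027 libraries. At day 0 it had 10.7 (JL019) and 2498 (JL027) in Treg but 9.93 and 2.71 in CD8 cells, so the library labelled CD8 day 0 JL027 stood with the JL019 libraries. Whether its label is right was not tested, and values that rest on day 0 CD8 cells are also given without it where they move by more than 1.5 times or lose their call.

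Of all genes, 6065 passed the test, which is 36.2% of those tested, with 2940 higher in Treg (17.6%) and 3125 lower (18.7%). Of those that passed, 205 differed by more than 16-fold, 120 of them higher in Treg and 85 lower. The direction was the same in JL019 and in JL027 libraries for 6059 genes. The Treg and CD8 libraries did not overlap for 7060 genes (42.2%), of which 3528 were higher in Treg and 3532 lower (21.1% each), and 5484 of the 7060 passed the test. With only the JL019 libraries, 2 against 2, 292 genes passed. The split depended on the scaling: higher genes made up 48.5% of those that passed as deposited, 38.5% after each library was centred on its median, which moved the median difference of all genes by -0.16, and 43.0% after quantile normalisation. With the label prefix as a block, 4177 genes passed (2069 higher and 2108 lower).

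The coreceptor genes matched the labels, while Foxp3 did not separate the populations by the test. Cd4, the coreceptor for class II molecules, had normalised counts of 14512, 14525 and 16083 in Treg and 8.76, 70.7, 38.1 and 16.6 in CD8 cells (log2 difference 9.16 ± 0.61 SE, adjusted p 9.0e-12). Cd8a, a chain of the class I coreceptor, had 43.4, 55.7 and 55.0 in Treg against 22586, 29769, 25031 and 28831. Foxp3 had 285, 265 and 293 in Treg and 236, 109, 153 and 126 in CD8 cells, so that the groups did not overlap but the difference of 0.91 did not pass the test (adjusted p 0.28). With the mean normalised count as a covariate in the same limma fit, the difference turned to -0.35 (adjusted p 0.68). In CD8 cells Foxp3 was at 9.68 and 6.82 at day 0 and rose by 4.04 to day 6, whereas in Treg it stood at 198 and 442 at day 0.

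Other genes of the Treg programme separated the populations. Of 25 Treg identity genes, 23 were higher in Treg and none lower (median difference 2.62, against 0.14 over all genes), and the counts were the same without CD8 JL019-2. Ikzf2, which encodes the Treg transcription factor Helios, had 14862, 14335 and 11615 in Treg against 729, 682, 716 and 896 (4.17 ± 0.36). Lrrc32, which encodes the surface protein GARP that holds latent TGF-beta, had 6326, 4213 and 3612 against 112, 18.1, 28.0 and 4.04 (7.60 ± 0.72). Izumo1r, the folate receptor 4 gene of Treg, had 5669, 6719 and 6200 against 76.7, 172, 141 and 143 (5.58 ± 0.29, adjusted p 9.9e-14). For these 3 genes the lowest Treg library lay more than 10 times above the highest CD8 library. Several identity genes had also risen in CD8 cells: 15 of 25 rose there from day 0 and 10 rose in Treg, and for 12 the change favoured CD8 cells by the test of the difference. The median difference of the list was 4.97 at day 0. Il2ra had 24209, 21787 and 19300 in Treg and 5690, 3840, 7342 and 4784 in CD8 cells, where it had been 82.3 and 67.7 at day 0. Ctla4 had 64681, 61226 and 30287 against 13334, 15217, 4532 and 6388, and rose by 6.15 in CD8 cells and by 2.18 in Treg. Nrp1, a receptor often used as a Treg marker, did not differ by the test (2409, 1973 and 2065 against 2358, 1004, 1859 and 1796, difference 0.35, adjusted p 0.17).

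**Figure D1:**
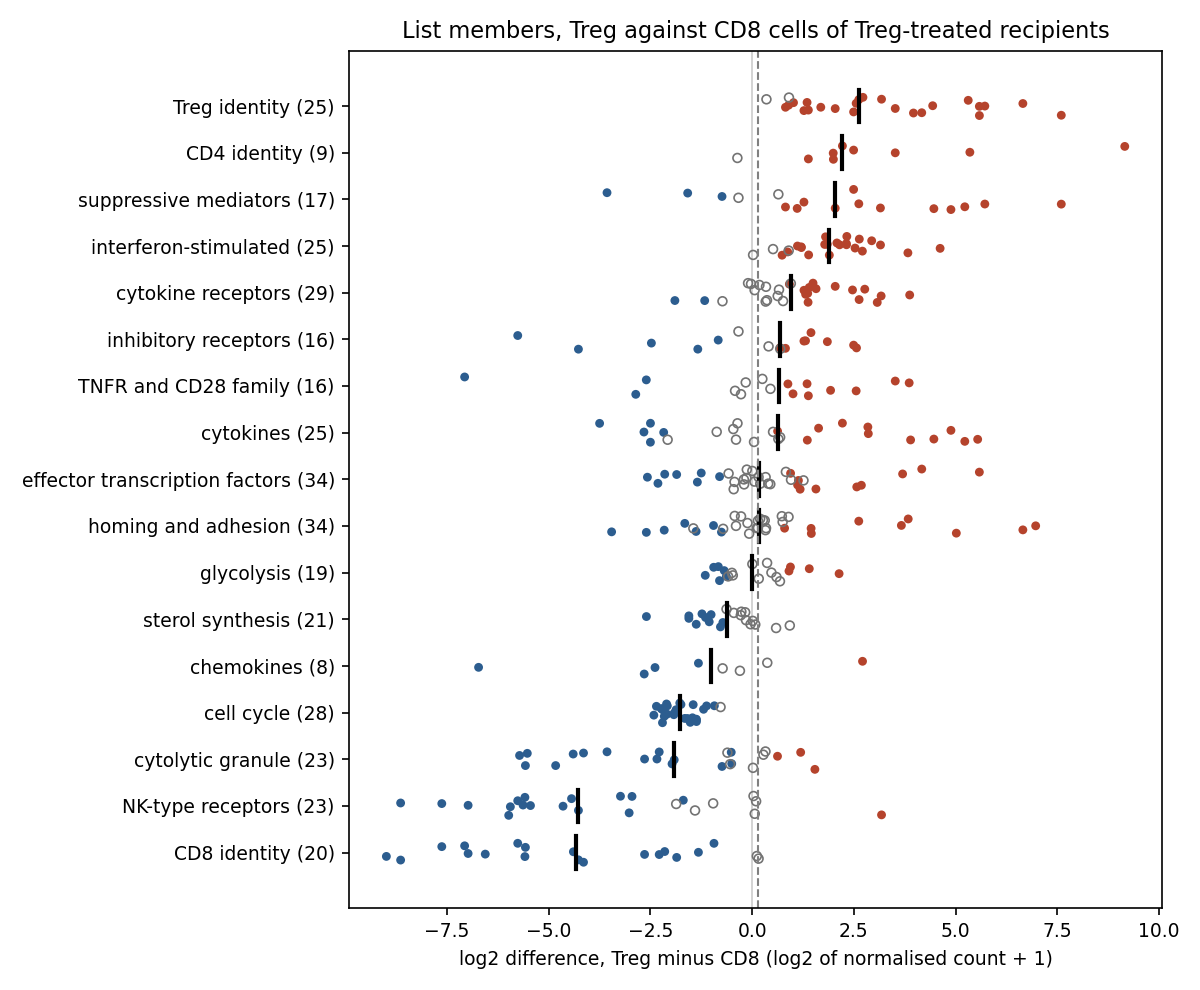
Each point is 1 gene of a list, placed by its log2 difference between Treg (3 libraries) and CD8 cells (4 libraries) of Treg-treated recipients. Red points passed the test as higher in Treg, blue points passed as lower and open points did not pass; black bars are list medians, the dashed line is the median of all genes (0.14), and numbers in brackets count list members in the table. Treg identity genes lie to the right (median 2.62), CD8 identity genes to the left (median -4.33), and cell cycle genes all lie below 0.

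Most cytolytic genes were lower in Treg than in CD8 cells. Of 23 members in the table, 15 were lower in Treg, 3 were higher and 5 did not pass (median -1.91). Without CD8 JL019-2, 14 were lower and 2 higher, and with the prefix as a block 12 and 2. Gzmb, the granzyme B protease that starts apoptosis in target cells, had 113553, 115106 and 117386 in Treg and 133187, 205511, 211116 and 237816 in CD8 cells. Every Treg library was below every CD8 library, by a log2 difference of -0.74 ± 0.27 (adjusted p 0.033). This call was not firm: it was lost on leaving out any single library of the 7 other than CD8 JL019-1, after quantile normalisation (-0.40, adjusted p 0.24) with the prefix as a block (-0.69, adjusted p 0.067), with the span trend removed (-0.53, adjusted p 0.099) and with the mean normalised count as a covariate (-0.50, adjusted p 0.19). Gzmc, a granzyme of strongly stimulated cytotoxic cells, had 2012, 3953 and 3793 in Treg against 2836, 6113, 5052 and 5768, and the ranges overlapped (-0.61, adjusted p 0.18).

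Perforin and the other granzymes were far apart. Prf1, which encodes the pore-forming perforin, had 861, 709 and 1645 in Treg against 13989, 8224, 12054 and 14299 (-3.57 ± 0.28, adjusted p 3.1e-10). Gzma had 6291, 5920 and 4951 against 83180, 224324, 94552 and 117108 (-4.40 ± 0.50). Gzmk had 547, 545 and 542 against 7267, 17126, 7736 and 8971 (-4.14 ± 0.31). None of these ranges overlapped, and the highest Treg library stayed under the lowest CD8 library by a factor of more than 4 for each. Gzmm, a granzyme of innate-like and CD8 T cells, had 19.4, 17.0 and 22.8 in Treg against 879, 2031, 633 and 805, and in neither population did its change from day 0 pass the test. Gzmd was listed at 0 in all 3 Treg libraries and had 27.8, 34.9, 111 and 64.3 in CD8 cells. Gzmf had 9.84, 7.35 and 4.93 against 204, 266, 213 and 241. Granzymes d, e and f are close copies of each other, so the authors' counting could have split reads among them, and their separate values are uncertain.

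Genes that arm, tether or protect against the granule differed in both directions. Fasl, the death ligand, had 1215, 984 and 986 in Treg against 6295, 6953, 3835 and 4867 (-2.34). Nkg7, a granule membrane protein, had 17659, 22461 and 19775 against 72105, 194038, 67326 and 92723 (-2.28). Serpinb9, the inhibitor that shields the cell from its own granzyme B, had 11989, 11610 and 8574 against 39710, 39702, 40593 and 46269 (-1.97), and Serpinb6b was lower by -1.91. These 4 genes were lower in every Treg library than in any CD8 library. Srgn, whose proteoglycan serglycin packs granule contents, was instead higher in Treg, at 70508, 79756 and 65821 against 19896, 52325, 17257 and 20550 (1.54). Tnfsf10, which encodes the death ligand TRAIL, was also higher, at 1558, 2013 and 1853 against 709, 865, 990 and 628 (1.19). Stx11, a syntaxin needed for granule release, was higher by 0.62, a call that was lost without CD8 JL019-2 (0.45, adjusted p 0.069), without either JL019 Treg library, after median centring, in a fit of only the 7 libraries and with the prefix as a block (0.64, adjusted p 0.10).

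**Figure D2:**
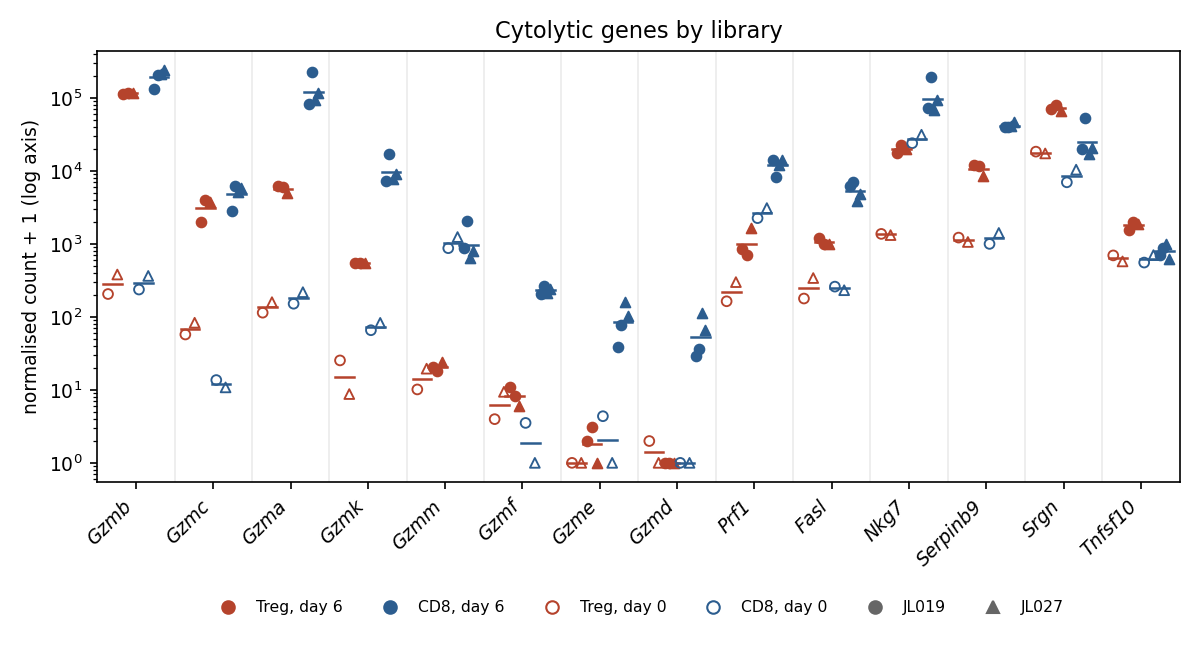
Normalised counts plus 1 on a log axis for 14 cytolytic genes, with 1 point per library (circles JL019, triangles JL027; filled day 6, open day 0; red Treg, blue CD8) and bars at the mean of the log values. Gzmb lies near 1e5 in both populations at day 6, whereas Prf1, Gzma, Gzmk and Gzmm are separated and Gzmd is at 0 in all Treg libraries of day 6.

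Change from day 0 showed how much of the granule programme each population had gained. From day 0, 1412 genes rose in Treg (8.43% of all genes) and 819 fell (4.89%). In CD8 cells 3362 rose (20.1%) and 3060 fell (18.3%), and 1048 rose in both populations (6.26%), which is 74.2% of the Treg rises and 31.2% of the CD8 rises. Of the 1048 shared rises, 485 ended lower in Treg at day 6 and 174 higher, while 389 did not differ by the test. Without the day 0 Treg library JL019 the shared rises numbered 599, and without CD8 day 0 JL027 985. Of the 23 cytolytic genes, 15 rose in Treg, 19 in CD8 cells and 14 in both. Gzmb went from 204 and 379 in Treg and 236 and 363 in CD8 cells at day 0 to the levels above, a rise of 8.69 in Treg and 9.36 in CD8 cells, and the difference of these rises was -0.67 (adjusted p 0.44). Prf1 rose by 2.18 in Treg and 2.17 in CD8 cells (difference 0.01, adjusted p 0.99); without CD8 day 0 JL027 its CD8 rise was 2.40 and the difference -0.22 (adjusted p 0.84). Its Treg minus CD8 difference was -3.58 at day 0, when Treg had 162 and 298 and CD8 cells 2249 and 3090, and -3.57 at day 6. Gzma rose by 5.40 in Treg and 9.37 in CD8 cells (adjusted p of the difference 0.0027), from counts of 113 to 217 in the 4 day 0 libraries. Nkg7 rose more in Treg, by 3.89 against 1.82 (adjusted p of the difference 0.026), from 1368 and 1316 in Treg and 23919 and 31225 in CD8 cells. Without CD8 day 0 JL027 the rises of Nkg7 differed by 1.87, which did not pass (adjusted p 0.12).

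With predicted genes and some other classes (given under processing) left out, 6 shared rises had the lowest larger p of the 2 tests. They were Gzmb, Gzmk, Havcr2, Ly6a, Serpina3g and Smpdl3b. Serpina3g, an activation-induced protease inhibitor, rose by 3.29 and 3.85 and ended at 48512, 48084 and 48258 in Treg against 5216, 5088, 6723 and 8244. Ly6a, the Sca-1 surface protein that interferon induces, rose by 4.02 and 4.47 and ended at 97093, 114371 and 108805 against 38056, 92797, 48078 and 45675, a difference that did not pass with the prefix as a block (0.98, adjusted p 0.057). Smpdl3b, a lipid-modifying phosphodiesterase of the membrane, rose by 4.43 and 3.69 and did not differ at day 6 by the test (1058, 1309 and 1646 against 1156, 1181, 1462 and 1586, difference -0.02). Havcr2, the inhibitory receptor TIM-3, rose by 5.30 in Treg and 9.19 in CD8 cells and ended at 5540, 5439 and 4877 against 9945, 7248, 10076 and 10760 (-0.83, adjusted p 0.039, lost on leaving out any library other than CD8 JL019-2 and after quantile normalisation).

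The day 0 CD8 libraries carried transcripts of other cells. The summed normalised counts of 10 erythroid markers were 47318 and 56814 there, 208 and 552 in day 0 Treg, 2769 to 19656 in day 6 CD8 cells and 1846 to 51249 in day 6 Treg. Of these 10 markers, 7 differed in their change by the test, all in favour of Treg. The 11 B cell markers summed to 115749 and 158884 in day 0 CD8 cells and 31026 and 34386 in day 0 Treg. Their part in the rises was not tested. Between Treg and CD8 cells at day 6 no erythroid marker passed the test. With the prefix as a block, 2 of the 10 passed as higher in Treg. Of 11 B cell markers, Ighm (1.59) and Cd79a (1.91) were higher in Treg and Cd22 was lower (-1.58), and the list summed to 28327 to 41847 against 12320 to 15612. Of 15 myeloid markers 4 were lower (sum 2289 to 7487 against 12084 to 32425). Without CD8 JL019-2, 2 myeloid markers were lower, and with the prefix as a block 5. With that block Cd22 did not pass (adjusted p 0.064), while Cd79b passed as lower (-1.05, adjusted p 0.027). The part of erythroid, B cell and myeloid RNA in the day 6 differences was not tested either. No marker of these 3 lists was at 0 in every library of either population. None of the 4 Y-linked genes differed between Treg and CD8 cells by the test, and both groups held libraries of both prefixes.

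**Figure D3:**
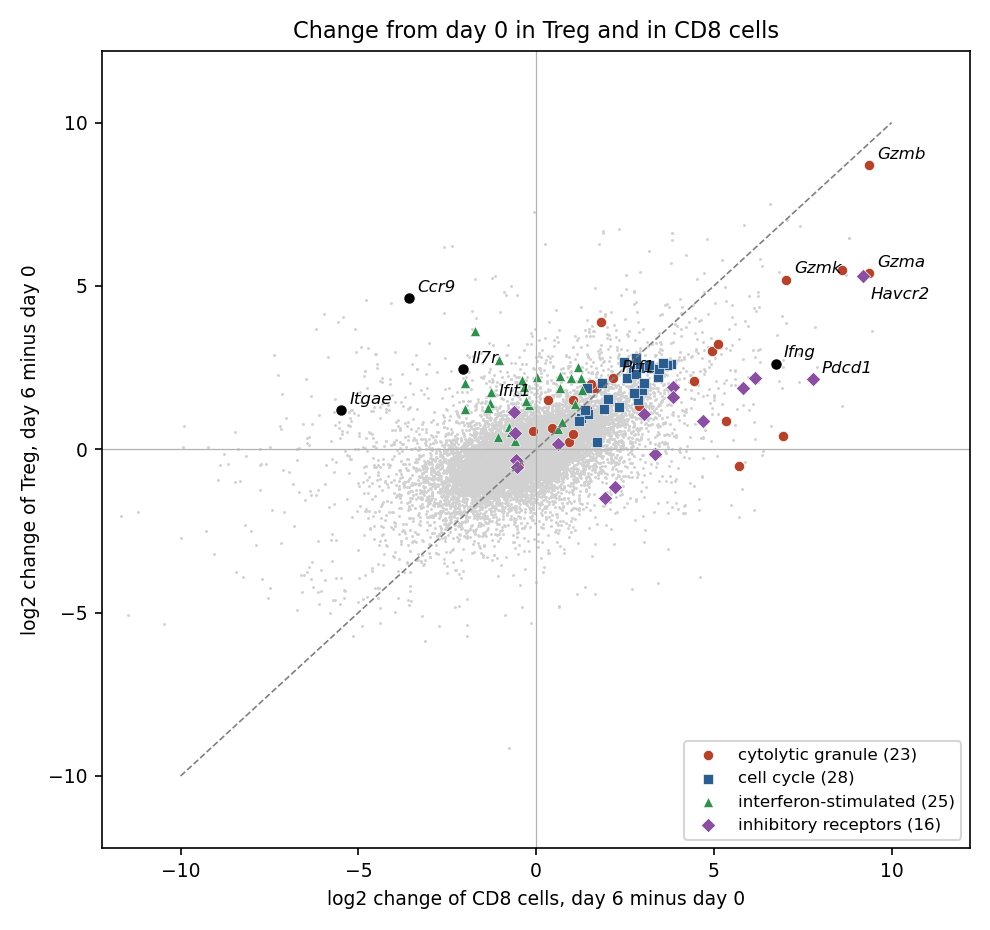
Each point is a gene, placed by its log2 change from day 0 to day 6 in CD8 cells (horizontal) and in Treg (vertical); grey points are all 16741 genes, coloured symbols are members of 4 lists, black points are 4 single genes, and the dashed line marks equal change. Gzmb lies near the line at 9.36 and 8.69, Prf1 on it at 2.17 and 2.18, most interferon-stimulated genes lie above it, and Pdcd1 (7.79 and 2.15) lies below it.

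Cytokine genes differed in both directions. Of 25 in the table, 11 were higher in Treg and 5 lower (median 0.63), and without CD8 JL019-2 the counts were 10 and 5. Ifng had 1328, 1438 and 1349 in Treg against 6541, 11806, 5649 and 8285 (-2.50 ± 0.32, adjusted p 9.5e-07). It rose in both populations, by 2.62 in Treg and by 6.74 in CD8 cells, and the rises differed by -4.12 (adjusted p 1.1e-05). Il21, a growth cytokine for B and CD8 cells, had 12.3, 12.6 and 19.8 against 133, 123, 323 and 353 (-3.75). Csf2, the GM-CSF gene, had 77.0, 130 and 240 against 656, 1146, 752 and 927 (-2.66), and Tnfsf14, the costimulatory ligand LIGHT, had 33.0, 40.2 and 81.6 against 335, 282, 192 and 311 (-2.50). These mediators were lower in each Treg library than in any CD8 library.

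Several mediators with known inhibitory or repair functions were higher in Treg, and of 17 genes listed as suppressive mediators 12 were higher and 3 lower (median 2.04; 12 and 2 without CD8 JL019-2). Il10 had 1716, 2021 and 1558 in Treg against 56.8, 120, 51.7 and 107 (4.47 ± 0.47). Ebi3, a subunit of interleukins 27 and 35, had 3103, 3763 and 3827 against 95.6, 148, 114 and 125 (4.88), and Penk, the precursor of the enkephalin peptides, had 14944, 16122 and 14143 against 207, 367, 328 and 432 (5.54). Each of these 3 genes also rose in CD8 cells, where Il10 was listed at 0 in both day 0 libraries. Areg, the tissue repair factor amphiregulin, had 982, 688 and 450 against 13.3 to 24.5 in the 4 CD8 libraries (5.23). Il4 had 465, 764 and 751 against 29.7, 77.4, 38.6 and 36.0 (3.89), and Csf1, the macrophage growth factor, was higher by 2.84. Itgav and Itgb8, which encode the integrin that frees active TGF-beta, were higher by 3.15 and 5.72. The 3 suppressive mediators that were lower were Gzmb, Prf1 and Lgals1, the last of which encodes galectin-1 and had 33977, 44201 and 42442 against 86660, 236943, 84500 and 118238 (-1.58).

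Of 8 chemokine genes, 4 were lower in Treg and 1 was higher (3 and 1 without CD8 JL019-2). Xcl1, which attracts cross-presenting dendritic cells, had 13.1, 12.5 and 4.85 in Treg against 698, 2010, 791 and 1281 (-6.72 ± 0.50). Ccl4, an inflammatory chemokine, had 708, 926 and 1734 against 4453, 13501, 4485 and 6880 (-2.65), and Ccl3 was lower by -2.39. The gene that was higher was Cxcl10, an interferon-induced CXCR3 ligand, at 1541, 1781 and 975 against 203, 460, 127 and 166 (2.71). Ccl3 and Ccl4 rose from day 0 in both populations.

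Inhibitory receptors were split between the populations: 8 of 16 were higher in Treg and 5 lower (median 0.69), and after median centring 6 and 5. Cd274, the PD-L1 ligand, had 4965, 4646 and 3199 in Treg against 1248, 582, 599 and 577 (2.56), and Cd200r1 had 2895, 2345 and 1709 against 551, 783, 605 and 596 (1.85). Cd160 had 141, 152 and 254 against 6594, 16279, 7896 and 9873 (-5.76), and Cd244a, the receptor 2B4, had 41.0, 53.5 and 37.5 against 872, 827, 838 and 890 (-4.27). Pdcd1, which encodes PD-1, had 17310, 11742 and 9086 against 42172, 27656, 22478 and 34961 (-1.33). At day 0 Pdcd1 was the other way round, at 2935 and 2616 in Treg and 131 and 147 in CD8 cells, and it rose by 2.15 in Treg and 7.79 in CD8 cells (difference -5.64, adjusted p 5.1e-08). In this list 11 genes rose in CD8 cells and 7 in Treg, all 7 of which rose in both, and for 11 the change favoured CD8 cells by the test of the difference.

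Of 16 costimulatory receptors of the TNF receptor, CD28 and SLAM families and related receptors, 8 were higher in Treg and 3 lower (median 0.66). Tnfrsf4, which encodes OX40, had 75680, 75188 and 53032 against 4556, 9128, 4807 and 5890 (3.52), Tnfrsf18, which encodes GITR, had 54349, 52667 and 46706 against 6684, 14871, 6644 and 8649 (2.56), and Tnfrsf8, which encodes CD30, was higher by 3.86. The 3 lower genes were receptors shared with natural killer (NK) cells. Crtam had 7.54, 22.3 and 17.8 against 2108, 1979, 1969 and 2258 (-7.06 ± 0.27, adjusted p 1.3e-16), Cd226, the activating receptor DNAM-1, had 611, 538 and 561 against 3323, 3080, 3657 and 3810 (-2.60), and Slamf7 was lower by -2.86.

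NK-type receptors had the lowest list median next to the CD8 identity genes, with which they share members: 16 of 23 were lower in Treg and 1 was higher (median -4.27), and without CD8 JL019-2 15 and 1. Klrc1, the NKG2A receptor chain, had 173, 150 and 110 in Treg against 27727, 35609, 23496 and 27450 (-7.62 ± 0.27, adjusted p 1.5e-17). Klrk1, the NKG2D receptor, had 18.4, 23.4 and 40.2 against 9242, 16710, 7527 and 11291 (-8.64). Klrd1, the CD94 partner chain, had 86.3, 57.9 and 57.2 against 7513, 17330, 5516 and 7044 (-6.98). Klrk1 rose by 3.99 in CD8 cells and fell by 1.83 in Treg. Klrc3 was listed at 0 in all 3 Treg libraries, with 56.8, 52.1, 62.8 and 80.1 in CD8 cells. The gene that was higher in Treg was Klrg1, which is found on differentiated effector cells of both kinds, at 19106, 18881 and 12463 against 1808, 2879, 1468 and 1438 (3.18). Of 8 markers of NK cells, 4 were lower in Treg (3 lower and 1 higher without CD8 JL019-2), and Klra9 was at 0 in all 3 Treg libraries; their summed counts were 901 to 1222 in Treg and 2151 to 4224 in CD8 cells, and the part of NK cell RNA was not tested.

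Genes for homing and adhesion, which direct cells to tissues, split 9 higher and 7 lower of 34 (median 0.17), and 10 and 8 without CD8 JL019-2. Of this list 47.1% passed the test, against 36.2% of all genes, whose median was 0.14. Ccr9, the receptor for the small intestinal chemokine CCL25, had 14354, 19234 and 19081 in Treg against 544, 499, 740 and 412 (5.02 ± 0.33). At day 0 the order was reversed, with 748 and 662 in Treg and 5415 and 7588 in CD8 cells, so that Ccr9 rose by 4.63 in Treg and fell by 3.58 in CD8 cells. The difference of 8.20 (adjusted p 1.8e-10) was the largest among the 10 genes that the rule names for unequal change. Itgae, the CD103 integrin chain that binds epithelial E-cadherin, started at 2327 and 3091 in Treg and 2337 and 3212 in CD8 cells. At day 6 it had 6950, 6190 and 5515 in Treg and 41.2, 59.3, 100 and 54.7 in CD8 cells (6.65 ± 0.37). In CD8 cells it fell by 5.48, and in Treg its change of 1.21 did not pass the test (adjusted p 0.080).

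Other chemokine receptors were higher in Treg, lower or no different by the test. Ccr4 had 2539, 2619 and 1879 in Treg against 16.7, 31.4, 7.41 and 23.6 (6.97 ± 0.42), a gap already present at day 0 (1140 and 1106 against 36.0 and 29.0). Ccr8 had 10371, 8309 and 5192 against 515, 689, 524 and 703 (3.67), Gpr15, a colon-homing receptor, was higher by 3.84, and Ccr2 by 1.46. Cxcr6, a receptor of liver-homing T cells, had 4293, 6171 and 5059 in Treg against 31799, 36703, 25745 and 30765 (-2.60), and Cx3cr1 had 260, 209 and 189 against 1380, 774, 850 and 992 (-2.16). Cxcr3, the receptor for interferon-induced chemokines, rose by 1.53 in Treg and 1.19 in CD8 cells and did not differ at day 6 by the test (9800, 9412 and 6690 against 7792, 9295, 5681 and 7387, difference 0.20, adjusted p 0.48).

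**Figure D4:**
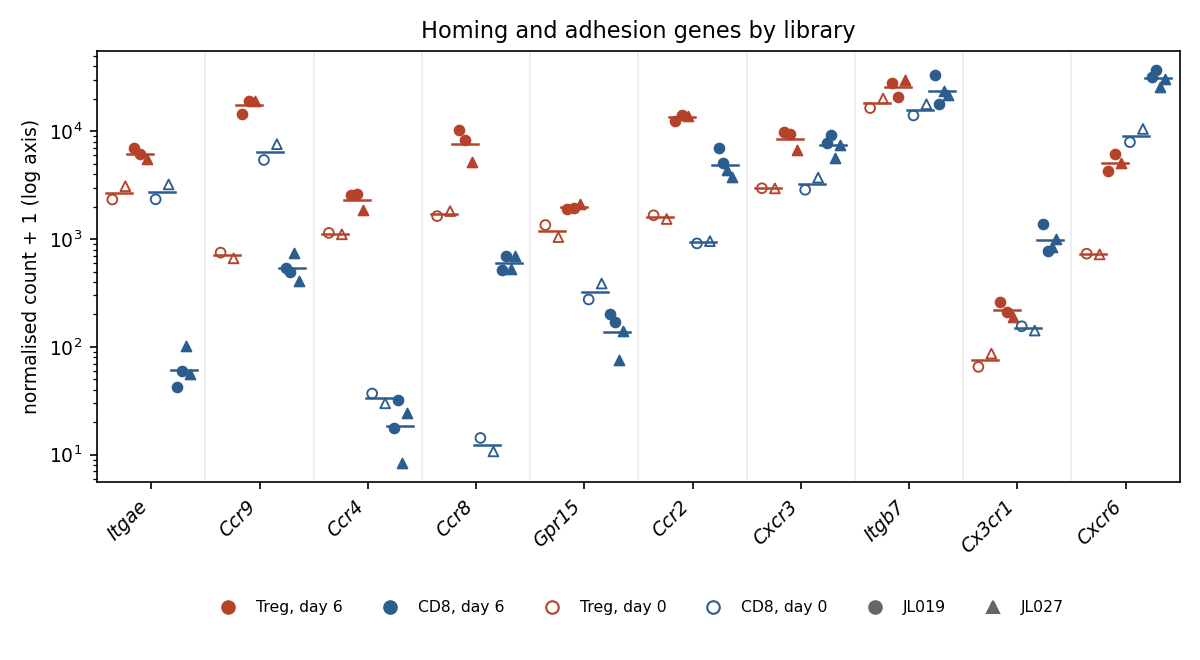
Normalised counts plus 1 on a log axis for 10 homing and adhesion genes, with 1 point per library (circles JL019, triangles JL027; filled day 6, open day 0; red Treg, blue CD8) and bars at the mean of the log values. Itgae starts at like levels in both populations and ends at 5515 to 6950 in Treg and 41.2 to 100 in CD8 cells, and Ccr9 changes places between day 0 and day 6.

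Of 29 cytokine receptor genes, 15 were higher in Treg and 2 lower (median 0.95), and 13 fell in CD8 cells (7 without CD8 day 0 JL027) against 2 in Treg. Falls were also more frequent in CD8 cells over all genes, at 18.3% against 4.89% in Treg. Ifngr2, the signalling chain of the interferon gamma receptor, had 628, 641 and 551 in Treg against 56.3, 52.8, 31 and 28.8 (3.87 ± 0.37). It fell by 4.70 in CD8 cells, from 922 and 1248. Il7r had 25490, 26048 and 17530 against 3666, 5807, 1436 and 1712 (3.07), rose by 2.45 in Treg and fell by 2.06 in CD8 cells. Il10ra was higher by 3.17, and Il1rl1, which encodes the interleukin 33 receptor ST2, had 7178, 5727 and 4372 against 1454, 540, 1235 and 1117 (2.47). The 2 lower genes were the interleukin 18 receptor chains Il18r1, at 1261, 1106 and 783 against 4218, 4077, 3148 and 4018 (-1.90), and Il18rap (-1.17), whose call was lost with the prefix as a block (-1.11, adjusted p 0.061).

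Transcription factors split 10 higher and 7 lower of 34 (median 0.18), and 9 and 6 without CD8 JL019-2. Of this list 50% passed the test, against 36.2% of all genes, whose median was 0.14. Maf had 4174, 4735 and 4776 in Treg against 284, 357, 380 and 390 (3.70), Gata3 had 12935, 11159 and 13469 against 2569, 1512, 2283 and 1599 (2.68), and Ikzf4, which encodes Eos, was higher by 5.58. Tbx21 and Eomes, the T-box factors of cytotoxic cells, were lower: Tbx21 had 1493, 1070 and 1721 against 7661, 2195, 6634 and 5907 (-1.85), and Eomes had 250, 166 and 366 against 1146, 803, 1232 and 1297 (-2.15). Both rose in Treg, by 2.81 and 1.86, and Tbx21 rose by 2.09 in CD8 cells. Tcf7 and Id3, factors of less differentiated cells, fell in both populations and were lower in Treg at day 6, Tcf7 at 311, 261 and 250 against 1975, 679, 2628 and 1989 (-2.57) and Id3 at 91.8, 63.7 and 114 against 223, 410, 587 and 687 (-2.31).

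Interferon-stimulated genes, which carry out the antiviral state induced by interferons, were higher in Treg as a group: 22 of 25 were higher and none lower (median 1.90), and the counts were the same without CD8 JL019-2. At day 0 only 1 of the 25 differed by the test. In Treg 19 rose from day 0, whereas in CD8 cells 5 rose and 9 fell, and for 13 genes the rise was larger in Treg by the test of the difference, with none the other way. Without CD8 day 0 JL027, 4 rose and 4 fell in CD8 cells, and the rise was larger in Treg for 9 genes. Ifit1 had 3983, 4593 and 4024 in Treg against 418, 372, 568 and 553 (3.15 ± 0.28), having risen by 1.43 in Treg and fallen by 1.30 in CD8 cells. Ifi27l2a had 60598, 68070 and 58636 against 5955, 15368, 6567 and 7275 (2.94), and Oas2, which makes the activator of RNase L, had 940, 783 and 671 against 87.2, 13.7, 57.0 and 13.3 (4.62).

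Cell cycle genes ran the other way. Of 28, 27 were lower in Treg and none higher (median -1.76), and without CD8 JL019-2 all 28 were lower. With the prefix as a block 24 were lower, as in a fit of only the 7 libraries. Most rose in both populations: 24 rose in Treg and 27 in CD8 cells, the 24 being shared, and 13 were already lower in Treg at day 0. The rise differed by the test for 3 genes, all rising more in CD8 cells. Without CD8 day 0 JL027, 7 were lower in Treg at day 0 and the rise of 1 gene differed. Cdk1, the mitotic kinase, had 1968, 2605 and 2089 in Treg against 6535, 14476, 7640 and 10559 (-2.08). Ccne1, the cyclin of S phase entry, had 810, 736 and 796 against 3141, 2816, 3903 and 4367 (-2.17), with rises of 2.03 and 1.86. Mki67 had 3855, 5162 and 4344 against 10787, 6266, 12965 and 9711 (-1.12), so that for all 3 genes every Treg library lay below every CD8 library.

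**Figure D5:**
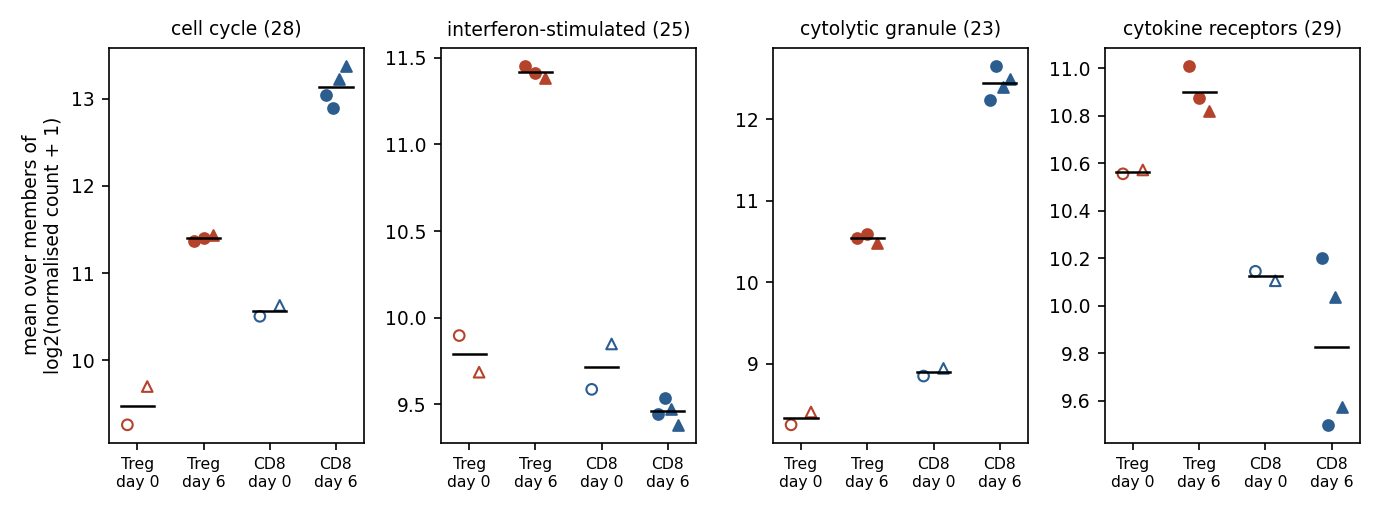
Mean over list members of log2(normalised count + 1), with 1 point per library (circles JL019, triangles JL027; filled day 6, open day 0; red Treg, blue CD8), bars at group means and a vertical axis of its own in each panel that does not start at 0. The cell cycle and cytolytic lists go up in both populations, the interferon list goes up in Treg and has a lower mean at day 6 than at day 0 in CD8 cells, and the cytokine receptor list goes up in Treg and spreads downward in CD8 cells.

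Promoter sequence was set beside these opposite groups. The consensus of the interferon-stimulated response element, searched on both strands as 2 copies of GAAA with any 2 bases between them within the 250 bases before the RefSeq gene start, was found in 8 of the 17 interferon-list genes with a promoter in the table (47.1%), in 1 of 23 cell cycle genes (4.35%) and in 936 of 27025 genes in all (3.46%). The core of the cell cycle homology region, searched as TTTGAA on both strands, was found in 7 of 23 cell cycle genes (30.4%), 2 of 17 interferon-list genes (11.8%) and 18.3% of all genes. Both lists were written from general knowledge of these gene classes, and the search used no expression value. A higher share in a list can follow from how the list was chosen and does not bear on Treg against CD8 cells. A match describes the letters and is not evidence of binding. The stretches below are shown because they hold the match in genes that passed the test in opposite directions. They are from RefSeq on GRCm38.p6 and are printed on the strand of the gene, with every match of the group's own motif in capitals; the Isg15 stretch holds 3 overlapping matches and the Ifit1 stretch 2. Isg15 (minus strand) spans chr4:156200840-156200919, Ifit1 (plus strand) chr19:34640750-34640829, Oas3 (minus strand) chr5:120777690-120777769, Cdk1 (minus strand) chr10:69352913-69352962 and Ube2c (plus strand) chr2:164769865-164769928.
Isg15: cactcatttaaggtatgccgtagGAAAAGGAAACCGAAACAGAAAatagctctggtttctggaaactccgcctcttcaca
Ifit1: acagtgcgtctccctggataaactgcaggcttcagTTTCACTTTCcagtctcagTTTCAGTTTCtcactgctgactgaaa
Oas3: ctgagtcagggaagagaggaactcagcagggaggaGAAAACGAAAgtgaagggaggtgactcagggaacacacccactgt
Cdk1: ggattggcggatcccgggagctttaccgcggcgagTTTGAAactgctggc
Ube2c: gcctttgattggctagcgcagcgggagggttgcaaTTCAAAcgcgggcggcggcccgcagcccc
Beside these stretches, Isg15 had 2712, 3372 and 3041 in Treg against 628, 1664, 656 and 873 (1.78) and Oas3 had 2527, 2001 and 2986 against 1099, 180, 1155 and 262 (2.32). With the mean normalised count as a covariate the Oas3 difference was 0.69 and did not pass (adjusted p 0.29). Ube2c, which marks mitotic proteins for destruction, had 1922, 2763 and 2558 against 7428, 19225, 8326 and 12243 (-2.20). In Ifit1 and Ube2c the matches lie on the opposite strand and so read as the reverse complement.

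Of 21 sterol synthesis genes, 10 were lower in Treg and none higher (median -0.63). Without CD8 JL019-2 11 were lower, with the prefix as a block 7, and in a fit of only the 7 libraries 8. In CD8 cells 9 rose, against 2 in Treg, where over all genes 20.1% rose in CD8 cells and 8.43% in Treg. Fdps, which makes farnesyl pyrophosphate, had 1213, 1372 and 1101 against 2444, 4965, 3224 and 4272 (-1.55). Glycolysis genes did not go one way: 4 of 19 were higher and 6 lower, which is 52.6% of the list, against 36.2% of all genes. The counts were 5 and 3 after quantile normalisation, 3 and 6 without CD8 JL019-2, and 3 and 3 with the prefix as a block. From day 0, 12 of these genes rose in both populations. Eno1 had 42897, 38413 and 38152 against 82531, 79809, 87823 and 105157 (-1.15), whereas the aldolase gene Aldoc had 427, 449 and 347 against 121, 151, 59.8 and 63.3 (2.14).

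Genes were also ranked without regard to lists. Left out, even where their p was lower, were predicted and unnamed genes, pseudogenes, and T-cell receptor and immunoglobulin segments. Mitochondrial, histone and ribosomal protein genes were left out too. Among the rest, the genes higher in Treg with the lowest p and no overlap of libraries were Wls, Izumo1r, Itgae, Tspan32, Lgmn, Ccr4, Asb2, Penk, Socs2 and Cd4. Wls, the carrier that brings Wnt proteins to the surface, had 5235, 4438 and 3746 in Treg against 165, 153, 150 and 118 (4.92 ± 0.24, adjusted p 1.8e-14), and fell by 2.96 in CD8 cells. Asb2, a ubiquitin ligase subunit, had 6214, 6268 and 9190 against 288, 143, 478 and 357 (4.61) and rose in both populations. Lgmn, the asparagine-specific protease legumain, had 1687, 1975 and 2266 against 54.2, 84.7, 66.7 and 69.4 (4.83) and rose in Treg by 2.33. Each of these 3 genes had its lowest Treg library more than 10 times above its highest CD8 library.

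The genes lower in Treg by the same rule, with the same classes left out, were Ctse, Klrc1, Crtam, Jaml, Ncald, Atp8b4, Cd8b1, Cd160, Klrk1 and Gdpd3. In all 5 Treg libraries of the series, 7 of these 10 (all but Ncald, Cd8b1 and Cd160) lay below every one of the other 26 libraries, and 4 of the 10 higher genes (Wls, Izumo1r, Ccr4 and Socs2) lay above them. Ctse, an endosomal aspartic protease, had 644, 550 and 793 in Treg against 17662, 13476, 15192 and 16380 (-4.57 ± 0.15, adjusted p 8.9e-18), and at day 0 it had 930 and 1067 against 14024 and 16493. Jaml, a junctional adhesion molecule that costimulates T cells, had 97.8, 81.2 and 60.3 against 2631, 3742, 1999 and 2945 (-5.12). Ncald, a neuronal calcium sensor family member, had 276, 225 and 192 against 4084, 4396, 2879 and 3359 (-3.98), after rises of 2.38 in Treg and 4.60 in CD8 cells. That every Treg library of these 3 genes was below every CD8 library was a condition of the rule.

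How much of the day 6 contrast was present before transplantation could be counted. At day 0, with 2 libraries each, 1539 genes differed between Treg and CD8 cells (9.19%), with 784 higher in Treg (4.68%) and 755 lower (4.51%). Without CD8 day 0 JL027, which leaves 1 CD8 library assumed to vary like the other groups, 447 were higher and 333 lower. Of the genes higher in Treg at day 6, 459 (15.6%) were already higher at day 0 and 25 were then lower, and of those lower at day 6, 408 (13.1%) were already lower and 45 were then higher. Without CD8 day 0 JL027 these counts were 280 and 8, and 187 and 18. These comparisons share no library with each other, but each test has its own power, so a gene outside these counts is not shown to have been equal at day 0. The change from day 0 itself differed for 1010 genes (6.03%), with 495 in favour of Treg (2.96%) and 515 in favour of CD8 cells (3.08%). Leaving out 1 day 0 library brought this count to 589 (Treg JL027), 645 (Treg JL019) or 660 (CD8 JL027, with 293 in favour of Treg and 367 in favour of CD8 cells).

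The lowest p for unequal change, among genes that also differed the same way at day 6, belonged in favour of Treg to Ccr9, Itgae, Wls, Elovl6 and Scin, each of which kept its call without CD8 day 0 JL027. This ranking, too, left out predicted genes and the other classes named above. Elovl6, a fatty acid elongase, rose by 2.63 in Treg and ended at 1863, 1444 and 1557 against 255, 384, 270 and 297. Scin, an actin-severing protein, rose by 2.80 in Treg and fell by 2.55 in CD8 cells, ending at 1106, 1050 and 895 against 74.7, 40.1, 66.2 and 55.1. In favour of CD8 cells the genes were Tbc1d4, Pdcd1, Ccdc50, Zbtb32 and Stk39, which kept their calls without it too. Zbtb32, a zinc finger repressor of activated lymphocytes, rose by 6.61 in CD8 cells and ended at 384, 312 and 226 in Treg against 3828, 4271, 3901 and 4838. Tbc1d4, a regulator of glucose transporter traffic, fell by 4.79 in Treg from 5526 and 4915 to 217, 198 and 154, while CD8 cells had 225 and 279 at day 0 and 426, 361, 491 and 303 at day 6. Ccdc50 rose by 3.01 and Stk39 by 3.46 in CD8 cells.

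The T-cell receptor (TCR) libraries of the same samples gave a readout that the choice of comparison did not use. Clonality, which is 0 when all clonotypes are equally frequent and 1 when a single one holds all reads, was computed on 8194 beta chain (TRB) reads drawn from each library. It was 0.148, 0.141 and 0.165 in Treg and 0.176, 0.156, 0.224 and 0.213 in CD8 cells, that is 0.151 ± 0.0120 (SD, n = 3) against 0.192 ± 0.0318 (SD, n = 4). The ranges overlapped, and the difference of -0.0407 gave p = 0.114 in a two-sided exact permutation test, for which 0.0571 is the smallest p the design allows. On all reads, without drawing to equal depth, clonality was 0.141 to 0.174 in Treg and 0.204 to 0.272 in CD8 cells, with no overlap, and the difference of -0.0836 reached that smallest p. Depth differed between these libraries, from 8194 to 133115 TRB reads. With clonotypes of at least 2 reads the difference was -0.0469, also at p = 0.0571 (exact permutation test). For the alpha chain (TRA) the difference was -0.0177 (p = 0.743, exact permutation test).

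Shared TRB clonotypes were counted between and within the populations. Over the 12 pairs of a Treg and a CD8 library, 0.146% to 2.80% of Treg reads belonged to a clonotype also found in the CD8 library (median 1.09%), and 0.161% to 8.27% of CD8 reads to one found in the Treg library (median 0.383%). Between Treg libraries the share was 0.830% to 6.87% (median 1.96%, 6 ordered pairs), and between CD8 libraries 0.781% to 65.9% (median 3.17%, 12 ordered pairs), so that the ranges within and between populations overlapped. The highest of the latter joined CD8 JL019-2 and Treg JL019-1, which carry different recipient labels. Of the 2 pairs with the same recipient label, Treg JL019-1 had 0.747% of its reads in clonotypes of CD8 JL019-1, and Treg JL019-2 had 1.55% in those of CD8 JL019-2. The other way, CD8 JL019-1 had 6.12% of its reads in clonotypes of Treg JL019-1, and CD8 JL019-2 had 0.177% in those of Treg JL019-2. For TRA the shares of Treg reads ran from 0.143% to 26.3% (median 1.85%). The share of 65.9% between CD8 libraries was for reads of JL027-1 in clonotypes of JL027-2, with 4.10% the other way. For TRB the next highest share between CD8 libraries was 25.8%, for reads of JL019-1 in clonotypes of JL019-2, with 3.76% the other way. For TRA, 22.4% of the reads of Treg JL019-1 lay in clonotypes of Treg JL019-2, with 5.02% the other way. Whether the libraries of any of these pairs share material was not tested, so they may not be independent replicates. Without CD8 JL027-1 5894 genes passed, and without CD8 JL027-2 4938. Libraries of different size offer different chances of a match, and PCR reads are not independent molecules, so these shares are a description.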

How the data were processed

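Members and gene lists were chosen with earlier results of these data known. Genes were named by rule (lineage, granule and Ifng genes; up to 3 called list members per direction; lowest p without overlap, 10 per direction; 6 shared rises; 5 unequal changes per direction); not all of them are printed, and further list members and uncalled examples were chosen after their values were seen. Predicted and unnamed genes, pseudogenes, and TCR and immunoglobulin segments were named by none of the last 3 rules. The same holds for mitochondrial, histone and ribosomal protein genes. RNA values are a signal deposited by the authors, counts normalised across libraries. FastQC 0.11.7, kallisto, DESeq2, GRCm38 and mm10 are named, without roles, per the submitters' processing notes. The deposited columns of log2 fold change, test score, p-value and adjusted p-value do not say which groups they compare and were left unused. Since the values are not counts, limma 3.58.1 (R 4.3.3) was run on log2(value + 1) over all 31 libraries (group means, trend and robust, Benjamini-Hochberg at 0.05). A difference on this scale is understated for low genes. The planned filter, a mean of at least 1, removed no gene. On simulated data for this comparison (16741 genes, 200 changed) 44% of log2 changes of 1 and 85% of changes of 2 were recovered, with 7 false calls. The simulated noise was normal, independent and of the same spread in every group, and no low gene was changed. These rates therefore need not hold for the real libraries.

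TCR tables hold the count of reads per clonotype and its percent of the library, deposited by the authors. Reads with the same V and J genes and the same CDR3 amino acids formed a clonotype, and clonality was 1 minus normalised Shannon entropy, as the mean of 20 draws. RefSeq promoters were matched by symbol. Other work used scipy 1.17.1, pandas 2.3.3, numpy 2.4.6 and matplotlib 3.10.9 under Python 3.11.15. The labels JL019-1 and JL019-2 occur in both populations. The deviation of JL019-1 from the mean of the 2 JL019 libraries correlated over genes between Treg and CD8 cells (r 0.338). Too few pairs exist to decide on pairing. Alternatives were other pseudocounts, filters and scalings, a correction for gene span or the mean normalised count, replicate blocks, fewer libraries and leaving out each library; leaving out day 0 libraries was added after seeing the data.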

Additional observations from a re-analysis of the deposited data

Results flagged for a closer look

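In the 4 CD8 libraries, 1 library lay far from the other 3 in 6 of 130 sets of values tested, which were 129 genes and the mean normalised count (about 1 in 20 would by chance). CD8 JL019-2 was highest for Ifi27l2a (15368), Klrd1 (17330) and Srgn (52325) and lowest for Stx11 (1657). CD8 JL019-1 was highest for Cd274 (1248) and CD8 JL027-2 for Serpinb9 (46269).

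Change from day 0 differed between Treg and CD8 cells by the test of the difference for 1010 genes. In favour of Treg, the log2 difference of the changes was 8.20 for Ccr9, 6.68 for Itgae, 5.36 for Scin, 3.80 for Wls and 3.03 for Elovl6. In favour of CD8 cells it was -5.91 for Zbtb32, -5.64 for Pdcd1, -5.42 for Tbc1d4, -3.58 for Ccdc50 and -3.26 for Stk39. The 2 CD8 libraries of day 0 hold erythroid and B cell transcripts, and their part in these differences was not tested.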

How the results depend on the processing

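Of 129 genes named, 127 kept the sign of the Treg minus CD8 difference under every alternative run. Their calls were lost for 66 within JL019 alone, 6 with a log2 change of at least 1, 5 with the prefix as a block, 4 after quantile normalisation, 4 with the mean normalised count as a covariate and 1 with the span trend removed. Smpdl3b, at -0.02, turned to 0.051 with the prefix as a replicate block, 0.059 after quantile normalisation and 0.011 in JL019 alone, and without 1 library ranged from -0.18 (Treg JL027) to 0.14 (Treg JL019-1), with values above 0 also without CD8 JL027-1 or CD8 JL027-2. Foxp3 turned to -0.35 with the mean normalised count as a covariate. The cause was not tested. Within JL019 alone, with fewer libraries, 292 genes passed (176 higher and 116 lower) and 58 list members, against 219. With a log2 change of at least 1, 4386 passed, 1933 of them lower. Leaving out each library gave 4513 to 5938 called genes (1990 to 2824 higher, 2483 to 3216 lower), 195 to 214 list members, 599 to 1158 shared rises, 589 to 1075 unequal changes (660 without CD8 day 0 JL027 and 645 without Treg day 0 JL019), a clonality difference of -0.0528 to -0.0301 and 0.849% to 1.55% of Treg TRB reads in CD8 clonotypes. That share was 1.85% for TRA and 0.702% with clonotypes of at least 2 reads.

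With the prefix as a replicate block 4177 genes passed, and with the recipient label as a replicate block 6718. The numbers pair only 2 libraries per population, so the block is reported as an alternative. The authors' deposited values gave no reads, so DESeq2 was not run, and depth limits could not be set. The alternative without a filter was the same as the main setting, since no gene was removed.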

Other observations

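In all 5 Treg libraries of the series (2 at day 0 and 3 at day 6), 164 genes lay above and 162 below every one of the other 26 libraries, and 10 of the 164 are in the Treg identity list. Of the 10 named genes per direction with the lowest p and no overlap of libraries, 4 are among the 164 and 7 among the 162. Predicted genes and the other classes listed under processing had been left out before this count. Some of the remainder are close copies of genes that most cells use, for which reads may be split between copies. Rps3a2 ranged from 6666 to 11398 in Treg libraries and from 12.6 to 99.9 in the others, Rps3a3 from 3667 to 8035 against 0 to 41.6, and Gm15459 from 161 to 412 against 11735 to 70841. All donors are described as C57Bl6, and the origin of these differences was not tested.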
